A study of Mus musculus with 8 samples.

Results

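The tripartite motif (TRIM) genes linked to the interferon response were described in fibro-adipogenic progenitors (FAPs), the mesenchymal progenitor cells of skeletal muscle, after injury. The group comprised 10 genes chosen by symbol from 55276 in the expression tables, namely Trim25, Trim14, Trim21, Trim26, Trim30a, Trim30d, Trim12a, Trim12c, Trim34a and Trim34b. RNA was sequenced from GFP+ FAPs sorted from the tibialis anterior muscle of mice aged 4 to 6 months after freeze-pierce injury, with 2 libraries for each of 4 groups. Control mice carried 1 floxed and 1 wild-type Osr1 allele (Osr1flox/+;CAGG-Cre+) and Osr1cKO mice carried floxed alleles only (Osr1flox/flox;CAGG-Cre+), each at 3 and at 7 days post injury (dpi). All mice carried CAGG-CreER, a tamoxifen-inducible Cre that is not restricted to a cell type, and received tamoxifen from the day of injury. Recombination replaced Osr1 by eGFP, so control FAPs had also lost 1 Osr1 allele and were sorted by the same reporter. A library at 3 dpi came from 1 mouse and a library at 7 dpi from 4 pooled mice.

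TRIM proteins share a RING finger, B-box and coiled-coil region, and most act as E3 ubiquitin ligases that attach ubiquitin to other proteins. Many of them end in a PRY-SPRY domain that binds viral or cellular targets, and many are themselves induced by interferon. In fibroblasts they tune the pathways that run from sensors of viral RNA and DNA to interferon and NF-κB, and some bind retroviral capsids directly.

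The libraries held between 36516528 and 51096358 fragments on genes. Summed over 7 markers, FAP genes reached 4840 to 8302 TPM (a level per transcript length, scaled to the same total in every library), and Pdgfra lay between 197 and 365 TPM. Leukocyte markers summed to between 1.51 and 13.3 TPM, with Ptprc at or under 0.216 TPM in every library. Osr1 stood at 105 and 91.0 TPM in control and 70.7 and 71.9 in Osr1cKO FAPs at 3 dpi, and at 67.6 and 71.6 against 64.4 and 60.8 at 7 dpi. This value covers the whole gene, including exons outside the deleted part, in controls that had 1 recombined allele. From the RNA-seq reads, the study reported efficient loss of the floxed exon and of expression of the exon after it. By RT-qPCR it reported reduced Osr1 mRNA in Osr1cKO FAPs at 3 dpi. Bulk libraries cannot tell fewer cells with a transcript from less transcript in each cell.

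On the mm10 (GRCm38) assembly, 7 of the 10 genes lie on chromosome 7. A cluster of 6 spans 263 kb and holds Trim34a (chr7:104244457-104262234, plus strand), Trim12a (chr7:104299894-104315466, minus), Trim34b (chr7:104329471-104336909, plus), Trim12c (chr7:104338754-104353362, minus), Trim30a (chr7:104409025-104465193, minus) and Trim30d (chr7:104470014-104507849, minus). Trim21 (chr7:102557921-102565486, minus) lies 1679 kb from this cluster. The other members are Trim14 (chr4:46493781-46536141, minus), Trim25 (chr11:88999376-89020293, plus) and Trim26 (chr17:36837134-36859398, plus). All values below are summed over the exons of each gene.

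Several members of the cluster are close copies. The coding sequences of Trim34a and Trim34b, 1455 bases each, were identical at 98.2% of aligned bases. Trim12a, with 891 coding bases, and Trim12c, with 1491, were identical at 96.4% of aligned bases, and Trim30a and Trim30d at 90.2%. Of all stretches of 75 bases in Trim34b transcripts, 42.5% also occurred in Trim34a. Trim34a shared 29.5% of its stretches with Trim34b and a further 19.0% with Gm47248, an antisense gene. For Trim12c the share was 17.3%, of which most lay in Trim5 and 2.60% in Trim12a. Trim12a shared 5.58%, Trim30a 4.98% and Trim30d 5.40%, the last pair almost entirely with each other. Trim14 shared 31.9%, mainly with Nans, a gene on the opposite strand whose exons overlap 31.3% of its exon bases. Trim21 and Trim25 shared none and Trim26 0.569%. Whether the authors' counting used strand, or how it treated reads that fit several copies, is not given in the sources used here. Levels of Trim34a, Trim34b and Trim14, and to a lesser degree of Trim12c, are uncertain to that extent.

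Promoter windows at annotated starts were close copies for the Trim30 and Trim12 genes but not for the Trim34 genes. Windows of 300 bases around annotated starts (250 before, 50 after) were found in RefSeq for 9 of the 10 genes, Trim14 being the one without an entry. Over all alignment columns the windows of Trim30a and Trim30d were 90.8% identical and those of Trim12a and Trim12c 72.6%, and the windows of Trim34a and Trim34b 45.6%. The median over the 36 pairs of members was 44.6%. Windows set at annotated starts cannot tell promoters that differ from starts that were annotated at different places. Whether these sequences are linked to the levels was not tested. The 120 bases before the start of both Trim34 copies are shown because the level of Trim34b differed most between groups (GRCm38.p6, plus strand, chr7:104244337-104244456 and chr7:104329351-104329470).
Trim34a: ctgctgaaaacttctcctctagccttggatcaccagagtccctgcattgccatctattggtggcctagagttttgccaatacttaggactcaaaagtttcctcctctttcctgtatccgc
Trim34b: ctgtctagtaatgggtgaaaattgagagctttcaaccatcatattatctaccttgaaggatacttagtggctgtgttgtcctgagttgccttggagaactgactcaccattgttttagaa

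The core of the interferon-stimulated response element, a promoter element of many interferon-induced genes, was searched on both strands as GAAANNGAAA. It was found in the windows of 7 of the 9 genes, and in 3.44% of the 32851 mouse windows of the same length. The core of the gamma-activated site, searched as TTCNNNGAA, was in none of the 9 and in 8.3% of all windows. The matches are shown with 30 bases each, 5′ to 3′ on the strand of the gene (GRCm38.p6), with the matching bases in capitals and overlapping matches joined.
Trim21 (chr7:102565447-102565476, minus): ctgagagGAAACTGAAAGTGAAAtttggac
Trim34a (chr7:104244457-104244486, plus): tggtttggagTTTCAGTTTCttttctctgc
Trim12a (chr7:104315466-104315495, minus): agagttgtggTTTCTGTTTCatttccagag
Trim12c (chr7:104353359-104353388, minus): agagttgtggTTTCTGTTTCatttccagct
Trim30a, first start (chr7:104465210-104465239, minus): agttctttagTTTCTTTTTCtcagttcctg
Trim30a, second start (chr7:104446104-104446133, minus): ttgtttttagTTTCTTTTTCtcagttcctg
Trim30d (chr7:104507871-104507900, minus): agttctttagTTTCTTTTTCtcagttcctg
Trim26 (chr17:36836979-36837008, plus): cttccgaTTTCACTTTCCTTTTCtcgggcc

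In Trim30a (first start) and Trim30d the 30 bases shown were the same. Matches lay between position -41 and 29 from the start in every gene but Trim26, where the joined match began at position -160. Trim21 and Trim26 held overlapping matches and every other window with a match held 1. No match was in the windows of Trim34b and Trim25, which says only that these letters are not in those windows.

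**Figure D1:**
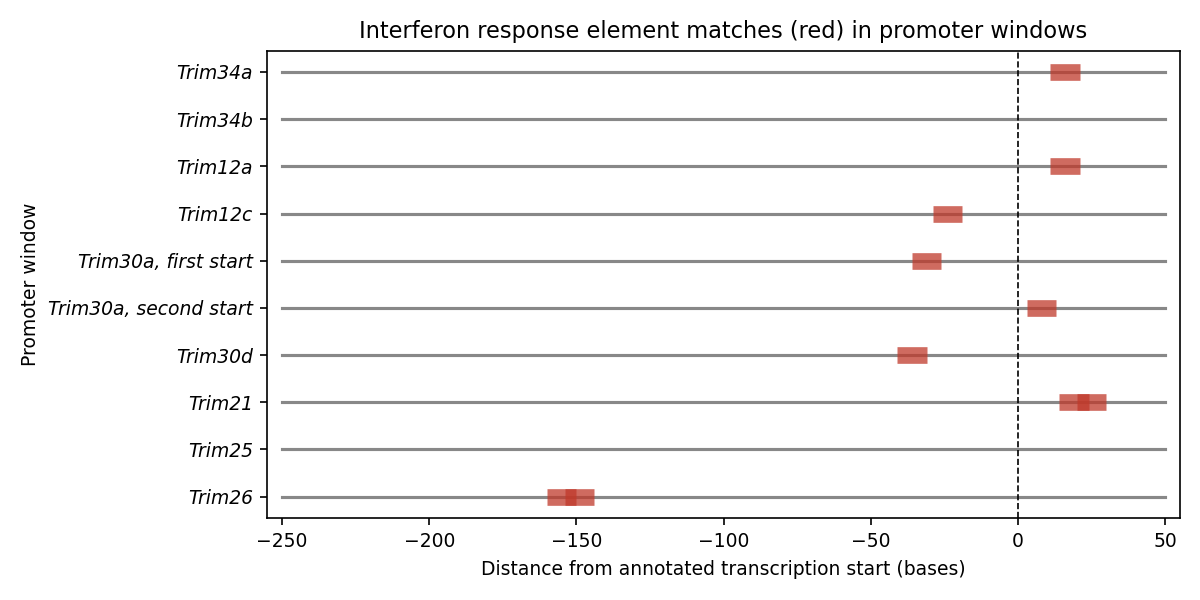
Position of matches to the interferon-stimulated response element core (red) in RefSeq promoter windows, in bases from the annotated start (dashed line), for 10 windows of 9 genes. Matches stood in 8 windows, near the start in all of them except Trim26.

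Trim25 and Trim30a were the most abundant members in every group. Trim25, the ligase that modifies the RNA sensor RIG-I and also joins ISG15 to proteins, stood at 188 and 123 TPM in control FAPs at 3 dpi, 90.3 and 55.6 in Osr1cKO FAPs at 3 dpi, 58.4 and 61.0 in control FAPs at 7 dpi and 49.8 and 47.3 in Osr1cKO FAPs at 7 dpi. Trim30a, known for restraining NF-κB signalling downstream of Toll-like receptors, stood at 167 and 132 TPM, 99.1 and 36.4, 42.0 and 44.0, and 35.7 and 45.5 in the same order of groups. Between these genes the libraries overlapped at 3 dpi in both genotypes and did not at 7 dpi. Together they made up 66.3% of the summed TPM of the 10 genes in control FAPs at 3 dpi, and that sum was 518 and 400 TPM there, 317 and 160 in Osr1cKO FAPs, 185 and 197 in control FAPs at 7 dpi and 159 and 185 in Osr1cKO FAPs at 7 dpi. Trim25 ranked 3, 5, 4 and 6 among 69 TRIM genes in these groups and Trim30a ranked 4, 6, 8 and 9.

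The next levels, of Trim21, Trim26, Trim12c, Trim30d and Trim34a, were close to each other. In control FAPs at 3 dpi these genes had means of 32.6 ± 6.43, 31.8 ± 1.118, 28.9 ± 3.55, 22.1 ± 6.48 and 17.2 ± 1.15 TPM (SD, n = 2 each), and each overlapped its neighbour in that order. Trim14 (10.7 ± 3.68), Trim34b (6.18 ± 0.697) and Trim12a (5.15 ± 0.253) followed, without overlap between neighbours. In Osr1cKO FAPs at 3 dpi the order below Trim30a was Trim26, Trim12c, Trim30d, Trim34a and Trim21, again overlapping from one to the next, then Trim12a, Trim14 and Trim34b, the last at 0.211 ± 0.124 TPM. At 7 dpi the order was the same in both genotypes, from Trim25 and Trim30a through Trim30d, Trim26, Trim12c, Trim34a, Trim21 and Trim12a to Trim14 and Trim34b. Trim14 and Trim34b were the only members with a mean under 5 TPM in any group, and both were under 1.2 TPM in all libraries of 7 dpi.

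**Figure D2:**
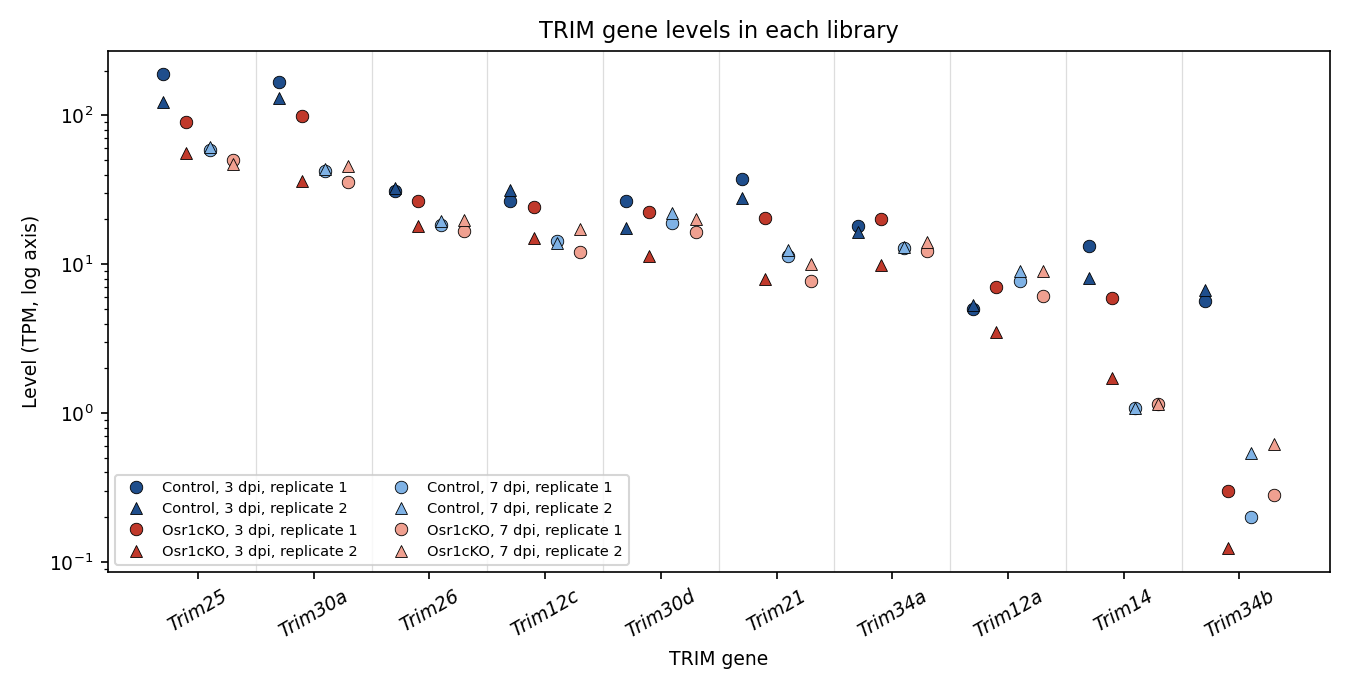
Level of each TRIM gene in each library, in TPM on a log axis, by group (colour) and replicate (circle or triangle). Trim34b lies between 5.69 and 6.67 TPM in control FAPs at 3 dpi and at or under 0.619 TPM in the other 6 libraries.

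At 3 dpi, both Osr1cKO libraries were below both control libraries for 7 of the 10 genes, which was so for 18.0% of all genes tested, and above them for none (18.2% of all genes). Log2 fold changes are given as Osr1cKO minus control on the log2(TPM + 1) scale with standard errors, which understates the change of genes with low TPM. The study's thresholds for this day ask for a fold change above 1.2 and p below 0.05 before adjustment. In limma, 5 of the 10 genes passed them as lower in Osr1cKO FAPs and none as higher, and 3.93% of 15589 genes were lower and 2.36% higher. At a Benjamini-Hochberg adjusted p under 0.1, 0 of the 15589 genes passed in limma and 0 in limma-voom, and 981 passed in either direction at the unadjusted p in limma. In the fit of all 8 libraries 13 of 17225 genes passed the adjusted p. Trim34b is counted in the 7 and in the 5. It passed the filter on low values at 3 dpi through its control libraries alone, so its inclusion adds no support. The genes were chosen with this contrast known, so the counts describe them and nothing is read from the excess over all genes.

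Among the genes that act around sensors, Trim25 differed by -1.09 ± 0.32, with means of 73.0 ± 24.5 and 155 ± 46.5 TPM (SD, n = 2). Trim14, which lacks a RING finger and binds the mitochondrial adaptor MAVS, stood at 13.3 and 8.06 TPM in control libraries and 5.94 and 1.73 TPM in Osr1cKO libraries, a difference of -1.39 ± 0.51. Trim21, a cytosolic antibody receptor and the autoantigen Ro52, stood at 37.2 and 28.1 TPM in control libraries and 20.4 and 7.98 in Osr1cKO libraries, with a difference of -1.26 ± 0.45. Groups did not overlap for any of these. Trim26, a ligase that acts on the IRF3 branch of interferon induction, stood at 31.0 and 32.5 TPM against 26.6 and 18.1 TPM, a difference of -0.51 ± 0.22 that did not meet the thresholds although the groups did not overlap.

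In the chromosome 7 cluster, the difference of Trim30a was -1.29 ± 0.48 without overlap. Its copy Trim30d, at 26.7 and 17.5 TPM against 22.5 and 11.3 TPM, overlapped between the genotypes, with a difference of -0.41 ± 0.38. Trim12c, a relative of the retroviral restriction factor TRIM5, stood at 26.4 and 31.4 TPM against 24.4 and 15.1 TPM, and the difference of -0.56 ± 0.27 did not meet the thresholds. Trim12a, a shorter relative of the same factor, stood at 4.97 and 5.33 TPM in control libraries, between the 7.00 and 3.49 TPM of the Osr1cKO libraries, with a difference of -0.04 ± 0.33. Trim34a, a counterpart of the human TRIM34 gene, stood at 18.1 and 16.4 TPM in control libraries, also between the 20.2 and 9.90 TPM of the Osr1cKO libraries, and differed by -0.26 ± 0.35. Trim12a and Trim34a thus gave no direction that held in both Osr1cKO libraries.

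Trim34b had the widest difference of the 10 genes. Control libraries at 3 dpi held 131 and 157 of its fragments, at 5.69 and 6.67 TPM, and Osr1cKO libraries held 7 and 3, at 0.299 and 0.124 TPM. Its difference was -2.57 ± 0.19 on the log2(TPM + 1) scale, and -4.39 with a pseudocount of 0.1 or -4.91 on recovered fragments with limma-voom. Per fragment of depth the control level was 30.6 times the Osr1cKO level (95% exact interval 16.4 to 64.5, covering counting error only). The interval pools the libraries of each group, so it leaves out the spread between mice and tests nothing. The 4 libraries at 7 dpi held 4 and 11 fragments in control and 5 and 11 in Osr1cKO FAPs, at 0.201, 0.539, 0.281 and 0.619 TPM. High levels were therefore seen in the control libraries of 3 dpi and in neither genotype at 7 dpi. The gene passed the filter on low values at 3 dpi through its control libraries alone. Its share of the summed TPM of Trim34a and Trim34b was 23.9% and 28.9% in control FAPs at 3 dpi and between 1.24% and 4.21% in the other 6 libraries.

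The Trim34a copy did not follow this pattern. Control libraries of 3 dpi held 583 and 542 of its fragments, Osr1cKO libraries 664 and 336, and libraries of 7 dpi between 307 and 373. Per fragment of depth its control level at 3 dpi was 1.195 times the Osr1cKO level (95% exact interval 1.10 to 1.30, counting error only), which is within the gap between the Osr1cKO libraries. With the TPM of both copies summed, the levels were 23.7 and 23.1 TPM in control and 20.5 and 10.02 in Osr1cKO FAPs at 3 dpi, and the difference was -0.67 on the log2(TPM + 1) scale, compared with -0.26 for Trim34a alone.

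**Figure D3:**
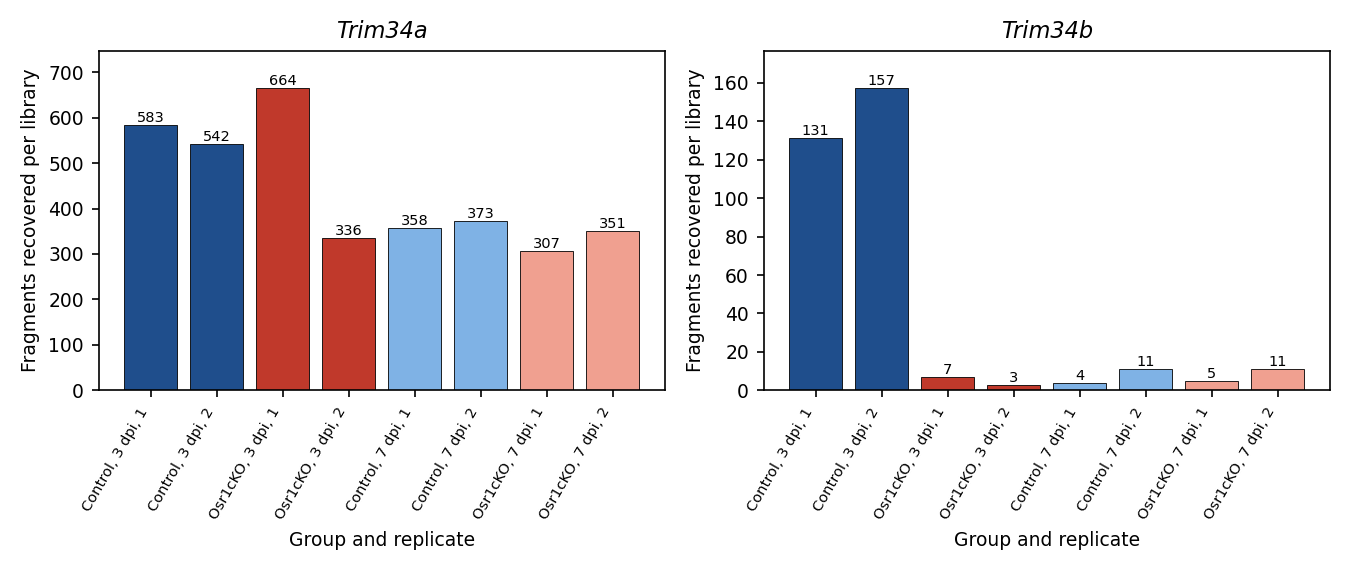
Fragments of Trim34a and Trim34b recovered in each of the 8 libraries (bars from 0, value above each bar). Trim34b has 131 and 157 fragments in control FAPs at 3 dpi and between 3 and 11 elsewhere, while Trim34a has between 307 and 664 in every library.

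The Osr1cKO libraries of 3 dpi differed strongly from each other in these genes. Replicate 1 was above replicate 2 for 10 of 10 genes, with a TPM ratio between 1.47 for Trim26 and 3.44 for Trim14 and of 2.72 for Trim30a. The median difference between these libraries was 0.90 on the log2(TPM + 1) scale, against -0.01 over all genes tested, whose median absolute difference was 0.15. In control FAPs at 3 dpi replicate 1 was above for 6 of 10 genes with a median of 0.17, and at 7 dpi for 3 of 10 in control FAPs (-0.04) and 2 of 10 in Osr1cKO FAPs (-0.24). Replicate 2 of Osr1cKO FAPs at 3 dpi thus lay close to the 7 dpi libraries: 1 member, Trim14, was above all 4 libraries of 7 dpi there, 4 members were below all of them and 5 were within their range. Replicate 1 of the same group had 8 members above all 4, and the control libraries of 3 dpi had 9 and 8.

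The genotype differences at 3 dpi depended on single libraries. Their median over the 10 genes was -0.83, against 0.01 over all genes tested. It was -1.18 without replicate 1 and -0.39 without replicate 2 of the Osr1cKO group, and -0.70 over the 9 genes then tested without either control library. Leaving out Osr1cKO replicate 1 left 9 of 10 members that met the thresholds as lower (3.26% of all genes), and leaving out Osr1cKO replicate 2 left 1 of 10 (1.54%). With control replicate 1 left out 0 of the 9 tested did (2.33%), and with control replicate 2 left out 2 of 9 (10.9%). Each of these fits has 1 library in a group and assumes that it varies like the 2 libraries of the other. Trim34b was tested in the fits that kept both control libraries, and its inclusion in their counts adds no support. Without Osr1cKO replicate 2, Trim34a, Trim30d and Trim12a were higher in the remaining Osr1cKO library, by 0.24, 0.07 and 0.40. Endothelial markers summed to 19.0 TPM in control replicate 1 of 3 dpi and to between 2.32 and 4.63 TPM in the other libraries of that day. Of that 19.0 TPM, Kdr alone held 16.8, and Pecam1, Cdh5 and Emcn were at 1.19, 0.821 and 0.104 TPM, against 1.10, 1.12 and 0.160 in control replicate 2. At 3 dpi leukocyte markers summed to between 1.51 and 5.95 TPM and markers of plasmacytoid and dendritic cells to at most 0.109 TPM. The part of other cells in the differences was not tested.

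**Figure D4:**
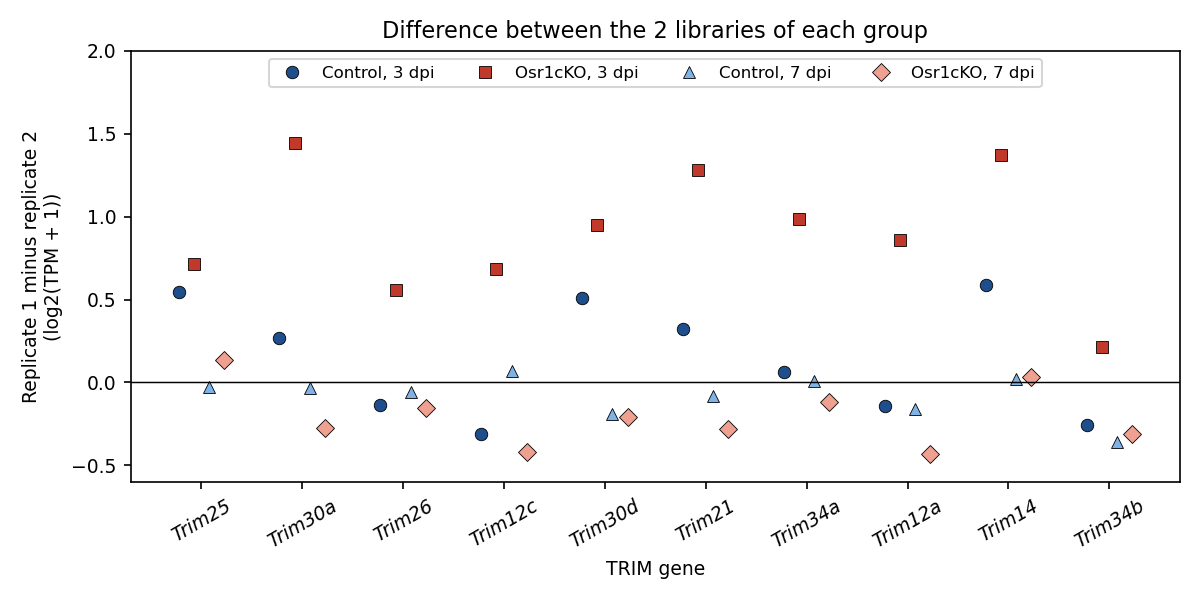
Difference between replicate 1 and replicate 2 of each group for each TRIM gene, on the log2(TPM + 1) scale after scaling. All 10 Osr1cKO values at 3 dpi are above 0, up to 1.45 for Trim30a, while the other groups scatter on both sides of 0.

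At 7 dpi the genotypes differed little. By the study's thresholds for this day, which ask for an adjusted p below 0.1, 0 of the 10 genes were called lower and 0 higher in limma, and 0.0487% and 0.0183% of 16427 genes were. At an unadjusted p under 0.05 Trim21 and Trim25 were lower, as were 5.94% of all genes, and no member was higher (5.25% of all genes). With limma-voom 1 member, Trim25, was called lower at the adjusted p, as were 1.86% of 16207 genes. Both Osr1cKO libraries were below both control libraries for Trim21 and Trim25 (10.7% of all genes) and above them for Trim14 (43.0%).

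At 7 dpi Trim21 went from 11.4 and 12.4 TPM in control libraries to 7.75 and 10.1 TPM in Osr1cKO libraries, a difference of -0.51 ± 0.14. Trim25, with the levels given above, differed by -0.42 ± 0.08. Trim30d stood at 18.8 and 22.1 TPM against 16.5 and 20.2 TPM, and Trim12a at 7.70 and 8.95 against 6.10 and 8.97 TPM. The 8 genes other than Trim21 and Trim25 differed by between -0.28 (Trim30d) and 0.04 (Trim34b). Trim14 stood at 1.09 TPM in both control libraries and 1.15 TPM in both Osr1cKO libraries, which is 51 and 52 fragments against 48 and 48. The median over the 10 genes was -0.20, and -0.07 without scaling, which moved the median of all genes from 0.00 to 0.11. Without scaling the values of Trim34a, Trim12c and Trim14 turned from -0.10, -0.09 and -0.03 to 0.03, 0.03 and 0.04, and 12 genes of the whole table were called higher and 6 lower, compared with 3 and 8.

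The genotype by day interaction over all 8 libraries passed an adjusted p under 0.05 for 0 of 17225 genes in limma, and 1164 of them (6.76%) had an unadjusted p under 0.05. With limma-voom the count was also 0, and without the filter on low values 30 genes passed. For the members the interaction is given as a value only, since it contains the contrast they were chosen on. It was 2.60 ± 0.27 for Trim34b, 1.34 ± 0.59 for Trim14 and 1.06 ± 0.57 for Trim30a, and between -0.23 and 0.74 for the other 7 genes.

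From 3 to 7 dpi most of the genes fell in control FAPs. The day contrasts share the libraries of 3 dpi with the contrast on which the genes were chosen, so their p-values are not independent of that choice. Day also went with the number of mice per library and possibly with the sequencing instrument, and these cannot be told apart. With a fold change over 1.2 and an adjusted p under 0.1 in limma, 7 of the 10 genes fell and 1 rose, and 25.5% and 24.0% of 16394 genes did. Trim34b, 1 of the 7, passed the filter on low values through its libraries of 3 dpi, so its fall is given as a description with no p. Its inclusion in the 7 adds no support. Both libraries of 7 dpi were below both of 3 dpi for 8 members, again with Trim34b included (41.6% of all genes). They were above them for 1, Trim12a (33.4%). The median change of the 10 genes was -1.06 on the log2(TPM + 1) scale, against 0.01 for all genes tested.

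Trim14 fell from 13.3 and 8.06 to 1.09 and 1.09 TPM (-2.38 ± 0.26 on the log2(TPM + 1) scale, limma with Benjamini-Hochberg adjusted p = 0.0052). Trim34b, at 131 and 157 and then 4 and 11 fragments, differed by -2.35 ± 0.22, and per fragment of depth its level at 3 dpi was 16.3 times that of 7 dpi (95% exact interval 9.70 to 29.5, counting error only). Trim30a fell by 1.67 ± 0.13 (adjusted p = 0.00375), Trim21 by 1.28 ± 0.16 (adjusted p = 0.00678) and Trim25 by 1.24 ± 0.20 (adjusted p = 0.0111). The libraries of the days did not overlap for these 5 genes. Their mean TPM at 3 dpi was between 2.60 times, for Trim25, and 16.7 times, for Trim34b, that of 7 dpi.

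Smaller falls were those of Trim12c, from 26.4 and 31.4 to 14.4 and 14.0 TPM (-0.88 ± 0.16, limma adjusted p = 0.0147), and of Trim26, from 31.0 and 32.5 to 18.4 and 19.6 TPM (-0.62 ± 0.13, adjusted p = 0.02). Trim12a rose from 4.97 and 5.33 to 7.70 and 8.95 TPM (0.68 ± 0.18, adjusted p = 0.0403), so that Trim12a and Trim12c went in opposite directions. The summed TPM of both copies, 31.4 and 36.8 at 3 dpi and 22.1 and 23.0 at 7 dpi, fell by 0.48 (adjusted p = 0.0568). Trim34a, at 18.1 and 16.4 TPM and then 12.8 and 13.04, did not pass the test (-0.30 ± 0.14, adjusted p = 0.145). With the TPM of Trim34a and Trim34b summed, the levels were 23.7 and 23.1 at 3 dpi and 13.01 and 13.6 at 7 dpi. That difference was -0.68 and is given with no p, because the sum includes Trim34b. Trim30d did not pass the test (0.01 ± 0.21, adjusted p = 0.971).

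Leaving out single libraries ended some of these calls. Without control replicate 1 of 7 dpi the calls of Trim12a (adjusted p = 0.161) and Trim26 (0.203) were lost. Without control replicate 2 of 7 dpi those of Trim12a (0.268), Trim26 (0.171) and Trim12c (0.11) were lost in the limma fit. In a fit of all 8 libraries Trim12a was not called (limma adjusted p = 0.101). Trim34a was called without scaling (adjusted p = 0.0783) and without control replicate 2 of 3 dpi (0.0848). The fall of Trim14, Trim30a, Trim21 and Trim25 was called under every alternative of scaling, pseudocount, filter, tool, block and left-out library in which they were tested.

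In Osr1cKO FAPs the change from 3 to 7 dpi was called for Trim25 only. Trim34b, with 7, 3, 5 and 11 fragments, was not tested there, and of the other 9 genes 1 was lower and 0 higher, against 29.1% and 27.5% of 16161 genes. Both libraries of 7 dpi were below both of 3 dpi for 2 members, Trim25 and Trim14 (36.7% of all genes), and above them for none (40.6%). Trim25 moved from 90.3 and 55.6 to 49.8 and 47.3 TPM (-0.59 ± 0.24, limma adjusted p = 0.0954). That call was lost without scaling (adjusted p = 0.109), with a filter on mean TPM (0.129), without a filter (0.188) and without Osr1cKO replicate 1 of 3 dpi (0.14) or either library of 7 dpi (0.217 and 0.322).

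Trim14, at 5.94 and 1.73 and then 1.15 and 1.15 TPM in Osr1cKO FAPs, did not pass the test (-1.05 ± 0.44, limma adjusted p = 0.106). Trim30a changed by -0.62 ± 0.46 (adjusted p = 0.31) and Trim21, at 20.4 and 7.98 and then 7.75 and 10.1 TPM, by -0.54 ± 0.42 (adjusted p = 0.331). Trim12c, Trim26, Trim34a, Trim30d and Trim12a had values of -0.43, -0.31, -0.15, 0.13 and 0.44, with adjusted p between 0.239 and 0.758. The libraries of the days overlapped for all of these genes except Trim14.

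The replicates of 3 dpi decided the direction in Osr1cKO FAPs. The median change of the 9 genes was -0.43, and it was 0.09 without replicate 1 and -0.79 without replicate 2 of Osr1cKO FAPs at 3 dpi. Without replicate 2, Trim30a changed by -1.36, Trim14 by -1.75 and Trim21 by -1.20. Without replicate 1, Trim30d changed by 0.59 and Trim12a by 0.86. In those fits the single library of 3 dpi is assumed to vary like the 2 libraries of 7 dpi. At 3 dpi, replicate 1 minus replicate 2 was 1.45 for Trim30a, 1.28 for Trim21 and 1.37 for Trim14. At 7 dpi it was -0.28, -0.28 and 0.03. Calls from those fits are therefore not given here. Whether the day change of a member differed between genotypes was not tested apart from the interaction over all genes given above. Macrophage markers summed to between 11.0 and 20.1 TPM at 3 dpi and between 42.1 and 64.1 TPM at 7 dpi, and the 5 lymphoid markers to between 4.28 and 11.4 TPM at 3 dpi and between 7.19 and 14.5 TPM at 7 dpi. Nearly all of the lymphoid sum at 3 dpi was Cd79a, with 11.4 and 4.75 TPM in the control pair and 4.18 and 5.03 TPM in the Osr1cKO pair, and Cd3e, Nkg7 and Ncr1 were at 0. The part of such cells was not tested.

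**Figure D5:**
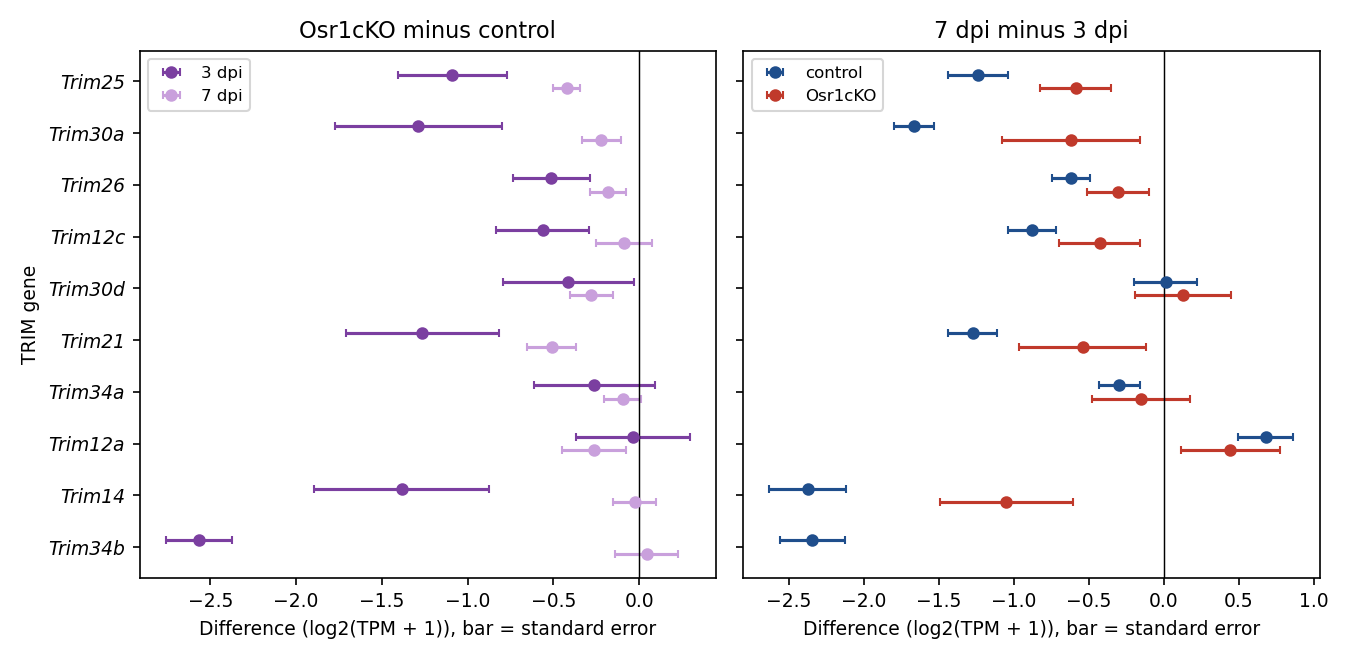
Difference of each TRIM gene between genotypes (left, Osr1cKO minus control at 3 and 7 dpi) and between days (right, 7 minus 3 dpi in control and Osr1cKO FAPs) on the log2(TPM + 1) scale, with standard errors from limma over 4 libraries. All 10 genotype values at 3 dpi lie below 0, from -0.04 for Trim12a to -2.57 for Trim34b, as do 7581 of 15589 genes tested. Without Osr1cKO replicate 2 of 3 dpi, 3 of the 10 are above 0. Trim34b has no day value in Osr1cKO FAPs because it was not tested.

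The 59 other TRIM genes did not share the fall from 3 to 7 dpi as a group. In control FAPs 9 of the 39 tested rose and 9 fell (24.0% and 25.5% of all genes), and the median change was -0.11 on the log2(TPM + 1) scale. In Osr1cKO FAPs 12 of 35 were called higher and 7 lower (27.5% and 29.1%), with a median of 0.08. Trim69, at 17.0 and 7.99 TPM in control FAPs at 3 dpi and 56.3 and 54.1 at 7 dpi, rose by 2.23 ± 0.32 (limma adjusted p = 0.00851). Trim47 fell from 180 and 168 to 89.3 and 82.6 TPM (-0.91 ± 0.11, adjusted p = 0.00636). At 3 dpi 6 of 37 were lower in Osr1cKO FAPs and 0 higher by the thresholds of that day (3.93% and 2.36% of all genes). Trim47 was among the lower genes, at 121 and 110 TPM. At 7 dpi 0 were called (0.0487% lower and 0.0183% higher of all genes). The 7 neighbours on chromosome 7 are also counted in the 59. In control FAPs 6 neighbours were tested and 1, Trim5, rose (from 1.28 and 0.937 to 1.89 and 2.14 TPM, limma adjusted p = 0.0492), beside 24.0% of all genes. In Osr1cKO FAPs 4 neighbours were tested and 3 were called higher (27.5% of all genes). At 3 dpi 1 of 6 neighbours, Trim6, was lower in Osr1cKO FAPs (3.93% of all genes), and at 7 dpi 0 of 4 were called.

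Genes of the pathways in which these TRIM proteins act were counted from lists that, like the members, were chosen with results of these data known. The counts stand beside the shares of all genes called in the same comparison, which were 3.93% lower and 2.36% higher between genotypes at 3 dpi, 0.0487% and 0.0183% at 7 dpi, 25.5% lower and 24.0% higher with the day in control FAPs, and 29.1% lower and 27.5% higher with the day in Osr1cKO FAPs. ISG15 conjugation, the attachment of a ubiquitin-like modifier for which Trim25 is a ligase, had 4 of 5 genes lower in Osr1cKO FAPs at 3 dpi, among them the conjugating enzyme Ube2l6 (334 and 250 against 168 and 92.1 TPM). All 5 fell from 3 to 7 dpi in control FAPs, with Isg15 going from 1858 and 1675 to 193 and 191 TPM (-3.10 ± 0.14, limma adjusted p = 0.00322), and 2 of 5 were called in Osr1cKO FAPs. At 7 dpi 0 of 5 were called between genotypes.

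Of 23 genes of RNA and DNA sensing and of TRIM partners, 6 were lower and 1 higher in Osr1cKO FAPs at 3 dpi and 0 were called at 7 dpi. Ifih1, which encodes the RNA sensor MDA5, stood at 111 and 86.6 TPM in control libraries of 3 dpi against 54.8 and 23.3 TPM in Osr1cKO libraries, and fell to 20.7 and 22.4 TPM in control FAPs at 7 dpi (-2.04 ± 0.14, limma adjusted p = 0.00366). From 3 to 7 dpi 7 of the 23 fell and 2 rose in control FAPs (25.5% and 24.0% of all genes), and 8 fell and 4 rose in Osr1cKO FAPs (29.1% and 27.5%). Mavs, the adaptor bound by Trim14, was among those that fell in Osr1cKO FAPs, from 22.1 and 24.7 to 14.6 and 15.9 TPM (-0.63 ± 0.11, limma adjusted p = 0.0091).

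Of 17 interferon receptor and signalling genes tested, 4 were lower in Osr1cKO FAPs at 3 dpi, among them Ifnb1, the gene of interferon-β, at 15.6 and 10.9 TPM against 4.43 and 1.02 TPM. Ifnb1 fell to 0.371 and 0.483 TPM in control FAPs at 7 dpi (-3.24 ± 0.22, limma adjusted p = 0.00362). In control FAPs 4 of the 17 fell and 3 rose with the day, in Osr1cKO FAPs 3 fell and 4 rose, and Irf1 rose in both (adjusted p = 0.00998 and 0.00866). At 7 dpi 0 of 16 were called between genotypes. Of 20 antiviral effectors outside the family, 17 were lower in Osr1cKO FAPs at 3 dpi and 0 were called at 7 dpi. In control FAPs 19 of the 20 fell with the day, among them Oas1a, whose product makes the activator of RNase L (295 and 250 to 45.7 and 44.2 TPM, adjusted p = 0.00322), and 7 did in Osr1cKO FAPs. All counts between genotypes at 3 dpi use the unadjusted p of that day.

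The genes most like the members were found by the root mean square difference between centred log2(TPM + 1) profiles over the 8 libraries and the median profile of the 10 genes. Of 10374 genes with a mean of at least 5 TPM, the 5 nearest were Isg20 (0.0826), Aftph (0.117), Psme1 (0.129), Ccl8 (0.132) and Herc6 (0.138). Isg20, an interferon-stimulated exonuclease gene, stood at 84.7 and 64.2 TPM in control libraries of 3 dpi, 47.4 and 27.3 TPM in Osr1cKO libraries, and between 26.2 and 32.6 TPM in the libraries of 7 dpi. Psme1, a proteasome activator subunit gene, stood at 217 and 166, 140 and 79.8, and between 82.2 and 93.6 TPM. These 8 points share the libraries and their depth, and no test was made.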

How the data were processed

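GFP+ FAPs of 4 groups were analysed from 8 libraries, grouped by their labels. Per the study's methods and labels, stranded, paired-end, polyadenylated RNA libraries were aligned to mm10 with STAR, and the authors calculated and deposited TPM values per gene symbol from fragments normalised by DESeq2. The labels give reads of 75 bases for all libraries, while the methods also name a second instrument. The counter, its annotation and its use of strand are not given in the sources used here.

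Of 55385 entries per library, 109 further entries of 106 repeated symbols were left out. Exon lengths of GENCODE release M21 (GRCm38) matched 53281 symbols and gave whole fragments, within 0.02, for 98.7% to 98.9% of values under 50 fragments. limma 3.58.1 in R 4.3.3 (lmFit, eBayes with trend) was run on log2(TPM + 1) after scaling by a 30% trimmed mean of log ratios, for genes with at least 10 fragments in 2 libraries and 15 in all, or a mean TPM of at least 1 where no length was known. The genotype contrasts were fitted on the 4 libraries of a day, the day contrasts on the 4 of a genotype and the interaction on all 8. Calls needed a fold change over 1.2 and an unadjusted p under 0.05 (genotype at 3 dpi) or an adjusted p under 0.1 (others), and the interaction an adjusted p under 0.05. Alternatives were no scaling, a pseudocount of 0.1, a filter on mean TPM or none, limma-voom on recovered fragments, a fit of all 8 libraries, a replicate block, summed copies and each library left out. The limma fit was also run on simulated data, in which only genes with many fragments were changed and all genes had the same spread. That says nothing about genes with few fragments, such as Trim34b. Nor does it cover libraries that differ as the Osr1cKO pair of 3 dpi did. Intervals of fragment ratios are exact, from Python 3.11.15 with SciPy 1.17.1, and alignments used Biopython 1.88. The intervals pool the fragments of both libraries of a group, so they leave out the spread between libraries and test no difference.

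The members and gene lists were chosen with earlier results of these data known, so the genotype values of members carry no p. Named beside the members are Osr1, at most 2 genes per list, comparison and direction with the smallest p among those that do not overlap, the 5 genes of nearest profile, and markers of other cell types. The lists were other TRIM genes, TRIM neighbours on chromosome 7, interferon receptors and signalling, sensing and TRIM partners, ISG15 conjugation and antiviral effectors. A library at 3 dpi is 1 mouse, so p-values measure the spread between mice there and between pools at 7 dpi. Protein sequences were not used here.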

Additional observations from a re-analysis of the deposited data

Results flagged for a closer look

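In TPM before scaling, Trim14 differed in opposite directions between genotypes at 3 and at 7 dpi. The difference of means, Osr1cKO minus control, was -6.835 TPM at 3 dpi and 0.0626 TPM at 7 dpi. In every library of each day the Osr1cKO value lay on that side of the control values. Of all genes tested, 18.0% were lower in this way at 3 dpi and 43.0% were higher at 7 dpi. The difference between the days was not tested for this gene. After scaling, the value at 7 dpi was -0.03 on the log2(TPM + 1) scale, so its direction there depends on scaling, and the 7 dpi levels of 1.09 and 1.15 TPM rest on 48 to 52 fragments per library. Trim14 also shares 31.3% of its exon bases with Nans on the opposite strand, and the part of that gene in its level was not tested.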

How the results depend on the processing

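Of the differences of single members between days, all kept their direction and their side of the threshold under the alternatives of scaling, pseudocount, filter, tool, fit over 8 libraries and block, except for 5 of 80 in control FAPs and 6 of 63 in Osr1cKO FAPs. Trim30d in control FAPs turned from 0.01 to -0.081 without scaling, to -0.052 without a filter and to -0.0040 in the fit over 8 libraries. The values of Trim12a turned to -0.48 in control and -0.18 in Osr1cKO FAPs once its TPM was added to that of the more abundant Trim12c, a result of that construction. For the other changes below the cause was not tested.

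With no filter on low values, 2 members were called lower at 3 dpi in place of 5, beside 2.17% of all genes in place of 3.93%. In the other direction 564 genes of the whole table were called higher in place of 368. limma-voom called 236 genes higher at 3 dpi, and at 7 dpi 1 member lower, 96 genes higher and 301 lower in place of 3 and 8. The fit over 8 libraries called 857 genes higher and 929 lower at 3 dpi and 0 and 0 at 7 dpi. It called 0 members higher with the day in control FAPs (26.8% of all genes). At 7 dpi 12 genes were called higher without scaling, and 0 higher and 0 lower with a filter on mean TPM or with no filter. In Osr1cKO FAPs the count of members that fell with the day was 1 (29.1% of all genes). That count was 0 without scaling (26.5%), with a filter on mean TPM (28.6%) or with no filter (15%). With a pseudocount of 0.1 (29.2%) or in the fit over 8 libraries (26.3%) it was 2. The interaction passed for 1 gene upward and 2 downward with a pseudocount of 0.1, for 1 downward with a filter on mean TPM, and for 10 and 20 with no filter.

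Leaving out 1 library moved most counts. Each of these fits has 1 library in a group and assumes that it varies like the other libraries. Trim34b was tested at 3 dpi where both control libraries were kept, and with the day in control FAPs. Its inclusion in those counts adds no support. Members called lower at 3 dpi ranged from 0 to 9, and over the whole table from 157 to 1117 genes were called higher and from 234 to 1661 lower. At 7 dpi the ranges were 1 to 159 and 3 to 146 genes, with no member called. With the day in control FAPs, from 0 to 1 members were called higher and from 5 to 8 lower, beside 1405 to 4690 and 1732 to 5137 genes. In Osr1cKO FAPs the ranges were 0 to 2 members higher and 0 to 8 lower, beside 2582 to 4182 and 2937 to 4689 genes. The interaction passed for 0 to 14 genes upward and 0 to 52 downward. Trim30d in control FAPs ranged from -0.27 to 0.24, and was -0.04 without control replicate 2 of 7 dpi. In Osr1cKO FAPs Trim34a ranged from -0.66 to 0.33, Trim30a from -1.36 to 0.089, Trim21 from -1.20 to 0.085, Trim30d from -0.37 to 0.59 and Trim12a from -0.0022 to 0.86.

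The replicate numbers do not pair the samples, since libraries of the same number share no animal, and their deviations from the group means correlated at -0.13 (genotype at 3 dpi), 0.06 (genotype at 7 dpi), -0.16 (day in control FAPs) and -0.09 (day in Osr1cKO FAPs). With the replicate number as a block, 5 members were lower at 3 dpi as before (3.95% of all genes), and 13 genes were higher and 14 lower at 7 dpi. That block gave 2 members in place of 1 called lower with the day in Osr1cKO FAPs (27.9% of all genes). The crossing of numbers was an alternative chosen after seeing the data. It called 6 members lower at 3 dpi, beside 478 genes higher and 711 lower. With the day in control FAPs it called 1 member higher (24.6% of all genes) and 7 lower (26%).

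Depth limits Trim34b most, with 3 to 11 fragments in 6 libraries, and Trim14 at 7 dpi with 48 to 52. With 2 libraries per group, p-values rest on the spread between few samples.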
